A study of Homo sapiens with 12 samples.

Results

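FILIP1L, NATD1 and IL32 are 3 human genes whose messenger RNA was much higher after erlotinib in both lung cancer lines of the series, out of 19775 genes that the array names by a single symbol. They are read by 6 probe sets of 1 gene symbol each, of which 3 belong to FILIP1L, 2 to NATD1 and 1 to IL32, and the brightest probe set of each gene passed the filter on low signals together with 13165 genes in all. They were chosen by their signals in erlotinib against DMSO in each line, so that change is described without a test. Only the difference between the lines, averaged over the treatments, is tested for these 3 genes.

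RNA was measured on 12 one-colour arrays of PC9 and HCC827, both established lines of lung adenocarcinoma whose EGFR is mutated and constantly active. Each line was kept for 8 days either in DMSO, the solvent, or in erlotinib at 2 micromolar, which blocks the kinase of EGFR, giving 4 groups of 3 arrays. All cells grew in medium with fetal bovine serum, and medium and agent were renewed once. The sample labels give dishes and fewer plated cells for DMSO and flasks and more plated cells for erlotinib, whereas the series design names flasks for both, so plating and drug cannot be told apart. The RNA came from cells still attached or alive after 8 days, each line is a single model, and the labels do not say whether replicate arrays stem from separate cultures. The p-values therefore measure the spread between these samples, which may be technical, and the number of arrays limits their precision. In bulk RNA, more RNA per cell and more cells that express a gene cannot be told apart.

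FILIP1L encodes filamin A interacting protein 1-like, first described as DOC1, a gene with reduced expression in ovarian cancer; the protein is known to restrain cell migration, WNT signalling and the matrix metalloproteinases. Its gene lies in the opposite orientation within CMSS1, a gene named as a ribosomal small subunit homolog. NATD1 encodes a small and little studied protein with a GNAT-type acetyltransferase domain, the fold that moves an acetyl group from acetyl coenzyme A to an amine. IL32 is a cytokine without a clear relation to other interleukins, known from activated T and natural killer cells and from epithelial cells exposed to TNF, interleukin 1 or interferon gamma, and it is known to induce other inflammatory cytokines.

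The RefSeq windows around the 5 listed start sites of the 3 genes are printed because the genes were high together and their promoters show what sequence they share and what they do not. Each window runs from 250 bases before to 50 bases after a start site of GRCh38.p14 and is written 5′ to 3′ on the strand of the gene. Capitals mark every match to 10 motifs searched on both strands, of which those found were the TEAD motif GGAATG, the E-box CACGTG, the cyclic AMP response element TGACGTCA with its core TGACGT, and the NF-kB motif (GGG and TTTCC with any 2 bases between).
FILIP1L, inner start, chr3:99876124-99876423, minus strand: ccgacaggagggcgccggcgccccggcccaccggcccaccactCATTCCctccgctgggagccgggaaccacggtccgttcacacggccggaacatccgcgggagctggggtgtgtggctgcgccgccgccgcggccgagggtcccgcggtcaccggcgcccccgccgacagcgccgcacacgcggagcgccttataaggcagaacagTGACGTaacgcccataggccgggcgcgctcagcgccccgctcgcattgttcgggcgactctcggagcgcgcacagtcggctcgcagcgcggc
FILIP1L, outer start, chr3:100114452-100114751, minus strand: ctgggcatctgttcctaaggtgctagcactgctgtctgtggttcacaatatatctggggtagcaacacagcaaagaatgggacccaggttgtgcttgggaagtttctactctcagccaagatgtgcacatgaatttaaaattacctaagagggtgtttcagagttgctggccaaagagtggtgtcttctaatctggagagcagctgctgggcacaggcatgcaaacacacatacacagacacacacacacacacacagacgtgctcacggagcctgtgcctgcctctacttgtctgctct
NATD1, chr17:21253361-21253660, minus strand: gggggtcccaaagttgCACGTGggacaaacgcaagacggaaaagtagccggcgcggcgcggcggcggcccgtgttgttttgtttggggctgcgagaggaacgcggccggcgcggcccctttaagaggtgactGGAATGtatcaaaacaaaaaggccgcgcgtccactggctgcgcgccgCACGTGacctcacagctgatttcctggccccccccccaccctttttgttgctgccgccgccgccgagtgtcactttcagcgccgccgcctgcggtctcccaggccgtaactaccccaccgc
IL32, first start, chr16:3065153-3065452, plus strand: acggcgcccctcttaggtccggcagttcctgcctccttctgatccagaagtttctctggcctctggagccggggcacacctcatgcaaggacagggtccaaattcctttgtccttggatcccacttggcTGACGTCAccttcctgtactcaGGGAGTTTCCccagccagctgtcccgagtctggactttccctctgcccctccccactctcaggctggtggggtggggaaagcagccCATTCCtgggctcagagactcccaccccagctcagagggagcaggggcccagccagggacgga
IL32, second start, chr16:3065534-3065833, plus strand: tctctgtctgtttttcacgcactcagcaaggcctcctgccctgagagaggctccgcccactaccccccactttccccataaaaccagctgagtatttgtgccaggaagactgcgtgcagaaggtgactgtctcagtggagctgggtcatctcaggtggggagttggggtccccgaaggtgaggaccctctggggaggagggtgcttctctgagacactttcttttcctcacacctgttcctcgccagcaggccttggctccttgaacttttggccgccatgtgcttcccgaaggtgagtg

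GGAATG was the only one of the 10 motifs found in a window of all 3 genes, at position -207 of the inner FILIP1L start, -118 of NATD1 and -13 of the first IL32 start, and 14% of all 35116 RefSeq promoter windows hold it. NATD1 had CACGTG at 2 positions, -234 and -71, a motif in 7.26% of windows. The first IL32 start had TGACGTCA at position -121, which 1.85% of windows hold, and a match to the NF-kB motif at -99, which 1.91% hold. The core TGACGT lay at -42 of the inner FILIP1L start and, within the full element, in IL32, and 7.98% of windows hold it. The letters of the AP-1 motif TGANTCA, the FOXO motif TGTTTAC, the STAT motif TTCNNNGAA, the interferon response motif (a pair of GAAA with any 2 bases between) and the ETS motif CCGGAAG were in none of the 5 windows, and neither the outer FILIP1L start nor the second IL32 start held a match to any of the 10. The windows differed in base composition, from 75.0% G and C at the inner FILIP1L start and 65.7% at NATD1 to 62.3% and 57.7% at the IL32 starts and 49.7% at the outer FILIP1L start, against a median of 58.7% over all windows. The probe sets do not tell which start site was used.

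FILIP1L was higher with erlotinib in both lines by a similar factor, from a DMSO level that was itself higher in PC9. Its brightest probe set, 204135_at, read 45.9, 47.6 and 45.9 on the PC9 DMSO arrays and 1199, 1322 and 1169 on the PC9 erlotinib arrays. In HCC827 it read 20.4, 22.2 and 25.2 with DMSO and 522, 546 and 548 with erlotinib. Every erlotinib array thus lay far above every DMSO array of its line, and the PC9 arrays lay above the HCC827 arrays within each treatment. The ratio of the mean signals was 26.5 in PC9 and 23.8 in HCC827, and the log2 changes, computed after 8 was added to each signal, were 4.50 ± 0.08 and 4.16 ± 0.08 (SE, 3 arrays per group). On a scale of all probe sets of an array, the level lay above 65.1% of them in PC9 DMSO and 95.7% in PC9 erlotinib, and above 56.7% and 89.0% in HCC827.

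The other probe sets of FILIP1L did not all report the gene. Probe set 1554966_a_at went from 36.0 ± 4.19 to 930 ± 73.7 in PC9 and from 15.1 ± 1.30 to 362 ± 18.6 in HCC827 (mean ± SD, n = 3), ratios of 25.8 and 24.0 that lie close to those of the brightest probe set. Probe set 1554965_at stayed between 1.0 and 4.4 on all 12 arrays, under the median signal of the table, which is 13, so it gives no measure of a change, although its treatments did not overlap in HCC827.

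NATD1 was higher by nearly the same amount in both lines and started from nearly the same level. Probe set 226657_at read 33.5, 27.4 and 26.7 in PC9 DMSO and 418, 395 and 372 in PC9 erlotinib. In HCC827 it read 34.4, 35.6 and 40.9 with DMSO and 432, 443 and 384 with erlotinib. The treatments did not overlap in either line, whereas the erlotinib arrays of the 2 lines overlapped with each other. The mean signals differed 13.5-fold in PC9 and 11.3-fold in HCC827, with log2 changes of 3.44 ± 0.10 and 3.25 ± 0.10. The second NATD1 probe set, 1553872_at, read between 3.7 and 18.4, with mean signals of 10.4, 12.9, 8.30 and 10.2 in PC9 DMSO, PC9 erlotinib, HCC827 DMSO and HCC827 erlotinib. Its DMSO and erlotinib arrays overlapped in both lines and its means lay near or under the median of the table, so the NATD1 result rests on 226657_at alone.

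IL32 reached a similar level in both lines with erlotinib from very unequal starting points. Its single probe set, 203828_s_at, read 1.2, 2.4 and 0.9 in PC9 DMSO and 554, 648 and 512 in PC9 erlotinib. In HCC827 it read 29.9, 30.7 and 40.6 with DMSO and 522, 548 and 486 with erlotinib. The DMSO arrays of the lines were apart, and their erlotinib arrays overlapped. In PC9 DMSO the signal lay above only 17.0% of the probe sets of an array, a level at which the array barely measures the gene, against 60.9% in HCC827 DMSO, 89.7% in PC9 erlotinib and 88.7% in HCC827 erlotinib. The log2 changes were 5.93 ± 0.12 in PC9 and 3.66 ± 0.12 in HCC827. The size of the PC9 change depends on the constant added to so low a signal: it was 7.88 with 1 in place of 8 and 4.16 with 32, so the HCC827 value, a 15.4-fold ratio of mean signals, is the better measured.

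**Figure D1:**
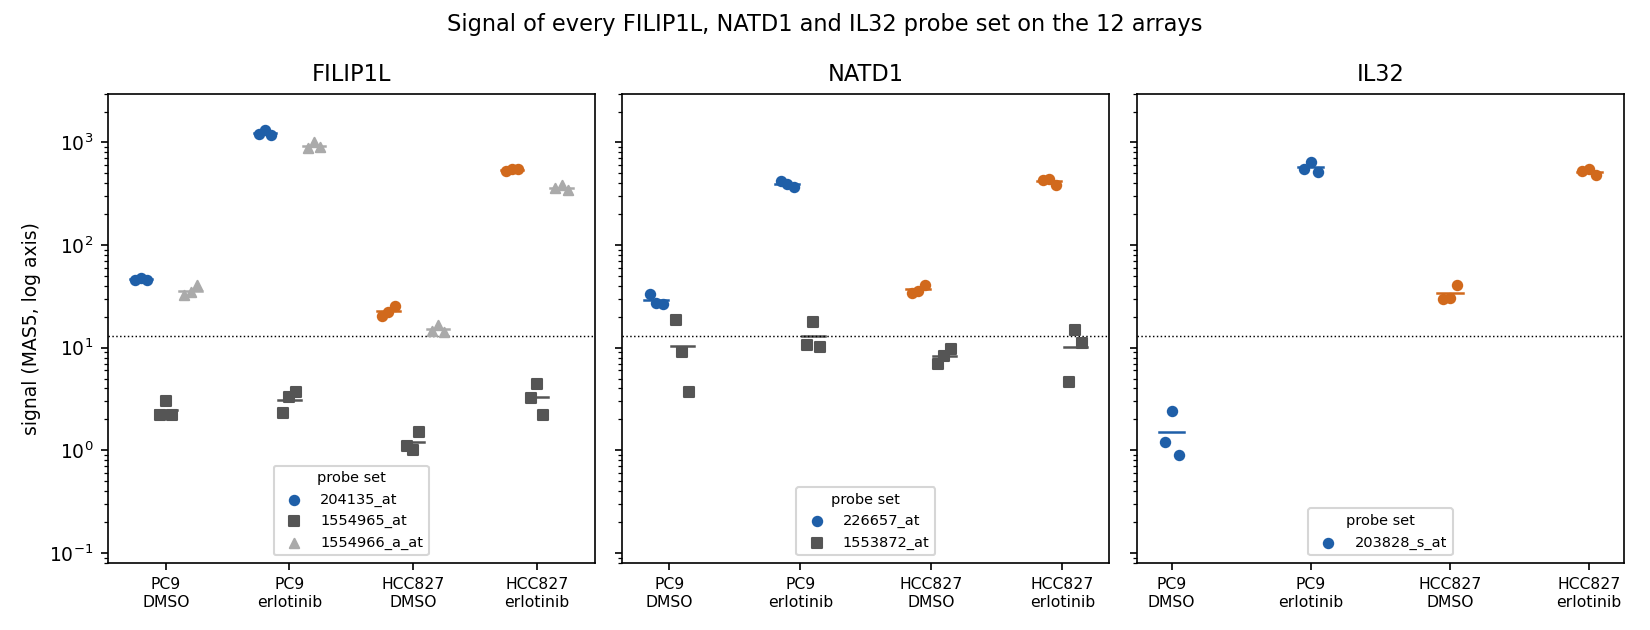
Signal of all 6 probe sets of FILIP1L, NATD1 and IL32 on the 12 arrays (log axis, MAS5 signal), with 1 point per array, a bar at the mean of each group of 3, the brightest probe set in colour (PC9 blue, HCC827 orange), other probe sets in grey and a dotted line at the median signal of 13. The coloured erlotinib points lie above all coloured DMSO points of the same line, IL32 is near 1.5 in PC9 DMSO and near 33.7 in HCC827 DMSO, and the squares of FILIP1L and NATD1 do not move with the coloured points.

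All 3 genes had no overlap between treatments in either line, and that alone is common: all erlotinib arrays lay above all DMSO arrays for 36.6% of the genes in PC9 and 37.7% in HCC827. Changes as large as theirs in both lines were less common, but their size comes from the same signals that chose the genes and is a description. Ordered by the smaller of the 2 log2 changes, FILIP1L was at rank 1 (4.16), MAP2, a neuronal microtubule-associated protein gene, at rank 2 (3.78), IL32 at rank 3 (3.66), the small proteoglycan gene LUM at rank 4 (3.57), PSG5 at rank 5 (3.33), NATD1 at rank 6 (3.25) and the alpha tubulin gene TUBA1A at rank 7 (3.03). These were the 7 genes with a log2 change of at least 3 in both lines, 0.0532% of those tested, while 86 genes passed 3 in PC9 and 27 in HCC827. Next in order were ANKRD1 (2.99), VTCN1 (2.97) and TP53INP1 (2.79). PSG5 belongs to a family of near-identical genes, so its probe set may read several of them. The PC9 change minus the HCC827 change was 0.19 ± 0.14 for NATD1, 0.34 ± 0.12 for FILIP1L and 2.26 ± 0.17 for IL32. The IL32 value rests on the low PC9 DMSO signal and was 3.96 with a constant of 1 and 1.10 with 32, while FILIP1L had 0.17 and 0.62 and NATD1 0.25 and 0.09. With 1 added in place of 8 the 3 genes took ranks 3, 13 and 6 (FILIP1L, NATD1, IL32), and with 32 they took ranks 1, 5 and 3, so the order among shared rises depended on the constant and FILIP1L stayed within the first 3.

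**Figure D2:**
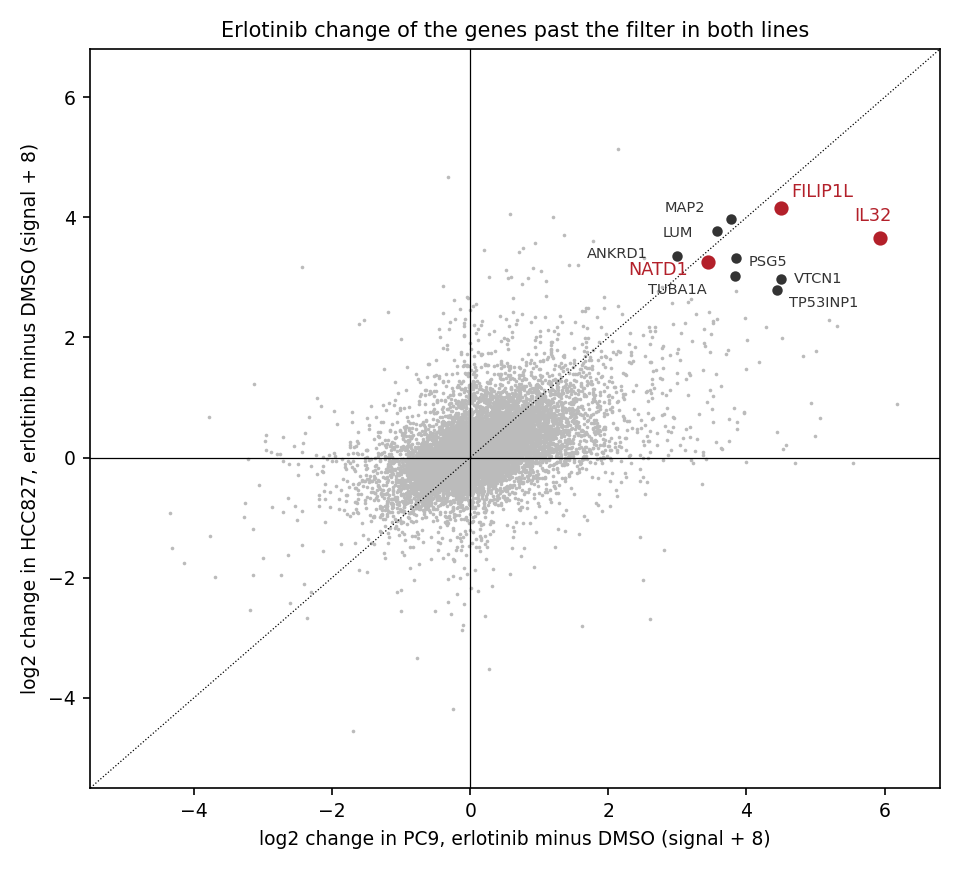
Log2 change with erlotinib in PC9 (x axis) against HCC827 (y axis) for the 13165 genes past the filter, with 1 grey point per gene, a dotted line of equal change and the 10 genes of the largest smaller change named. FILIP1L (4.50, 4.16) and NATD1 (3.44, 3.25) lie near the line of equal change and IL32 (5.93, 3.66) lies to its right.

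The difference between the lines is a separate contrast from the 2 treatment changes that chose the genes. As earlier results of these data were known at the choice, full independence is not assured. It was tested for each gene as the mean log2 level of both PC9 groups minus that of both HCC827 groups. The test was limma's moderated test with Benjamini-Hochberg adjustment over all genes. At an adjusted p under 0.05, 83.0% of all genes differed between the lines and 39.8% were higher in PC9, so a call by itself says little about the 3 genes. FILIP1L was higher in PC9 by 1.01 ± 0.06 (SE, adjusted p = 6.08e-11), and the difference was present in each treatment, with PC9 signals 2.06 times those of HCC827 in DMSO and 2.28 times in erlotinib. IL32 was lower in PC9, at -1.0 ± 0.08 (adjusted p = 7.01e-09). Its size depended on the constant, at -1.85 with 1 and -0.42 with 32 (adjusted p = 2.53e-09 and 1.07e-05). The treatments were unlike in this, since the HCC827 DMSO arrays read 29.9 to 40.6 against 0.9 to 2.4 in PC9 DMSO, a signal too low for a ratio, whereas the erlotinib arrays overlapped. NATD1 was lower in PC9 by a small amount, at -0.18 ± 0.07 (adjusted p = 0.0258), and this call did not hold with quantile normalization (adjusted p = 0.109), with the mean of both probe sets (adjusted p = 0.933) or without any 1 of PC9 DMSO replicates 2 and 3, PC9 erlotinib replicate 3, HCC827 DMSO replicate 3 and HCC827 erlotinib replicates 1 and 2, where the adjusted p reached 0.0721 at most. The order of levels was thus HCC827 DMSO, PC9 DMSO, HCC827 erlotinib and PC9 erlotinib for FILIP1L, with all neighbours apart. For NATD1 and IL32 it was PC9 DMSO, HCC827 DMSO and then both erlotinib groups, whose arrays overlapped.

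Across the 12 arrays, the genes whose log2 signal followed each of the 3 most closely were not the same. These correlations over 4 groups describe the pattern of group means, carry no p, and rest on arrays that share a treatment. Nearest to FILIP1L were PSG5 (r = 0.997), the calcineurin inhibitor RCAN1 (r = 0.996), the secreted glycoprotein FSTL1 (r = 0.996) and the Golgi complex subunit COG5 (r = 0.995), all higher in PC9 than in HCC827 and raised in both lines, by 3.85 and 3.33 for PSG5 and by 1.17 and 1.13 for RCAN1. Nearest to NATD1 were TAGLN, the actin-binding transgelin (r = 0.994, changes of 2.93 and 2.58), SLC2A4RG (r = 0.991), MYL7, a myosin light chain (r = 0.990), and the heparan sulfate-cleaving enzyme HPSE (r = 0.990). Nearest to IL32 were the autophagy receptor OPTN (r = 0.996, changes of 2.36 and 1.60), ZFYVE1 (r = 0.995), YPEL5 (r = 0.994) and PLEKHA8 (r = 0.993), each with a larger change in PC9. Among the 3 genes, r was 0.959 between FILIP1L and NATD1, 0.968 between NATD1 and IL32 and 0.892 between FILIP1L and IL32. Many other genes were closer: NATD1 ranked 125 and IL32 ranked 552 in likeness to FILIP1L.

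None of the genes next to the 3 on their chromosomes changed as much in both lines. For each, the 5 nearest genes past the filter on either side were taken from the RefSeq gene order of GRCh38.p14. No limit was set on their distance, so some may lie far from the gene. CMSS1, whose transcription unit overlaps FILIP1L on the opposite strand, fell in both lines, from 2026 ± 115 to 1114 ± 51.2 in PC9 and from 1233 ± 21.3 to 1028 ± 22.2 in HCC827 (log2 changes of -0.86 and -0.26, adjusted p = 7.71e-10 and 7.15e-04 in limma). Whether probes of the 2 overlapping genes can read each other's RNA was not tested. Of the 10 neighbours of FILIP1L on chromosome 3, 2 rose and 6 fell in PC9 (median change -0.33) and 3 rose and 3 fell in HCC827 (median 0.04). Over all genes, 64.7% passed in PC9, where 36.4% rose and 28.3% fell, and 51.8% passed in HCC827, where 32.3% rose and 19.5% fell. The rise of TBC1D23, 1 of the 2 in PC9, did not pass with median centring (adjusted p = 0.202). The largest neighbouring change was TMEM45A, a transmembrane protein gene 5 places away, which rose by 2.17 ± 0.11 and 1.76 ± 0.11.

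Around NATD1 on chromosome 17, 6 of 10 neighbours rose and 2 fell in PC9 (median 0.47), and 4 rose and 2 fell in HCC827 (median 0.08). Its nearest measured neighbours fell or did not pass: TMEM11 of the mitochondrial inner membrane fell by 0.33 and fell by 0.21, and LINC02693 fell by 0.55 in PC9 and had a change of -0.17 in HCC827 (adjusted p = 0.156). The noncoding CCDC144NL-AS1 rose by 3.31 ± 0.16 in PC9, close to NATD1 on this scale, but by 0.73 ± 0.16 in HCC827. The signals of CCDC144NL-AS1 went from 2.27 to 93.4 in PC9 and from 3.0 to 10.1 in HCC827. At so low a DMSO signal the size of its changes depends on the constant added. Its PC9 change was larger by 2.59 (adjusted p = 1.37e-07), in a contrast in which 45.2% of all genes passed. With median centring the PC9 rise of USP22 did not pass and DHRS7B fell. Around IL32 on chromosome 16, 3 of 10 rose and none fell in PC9 (median 0.06), and 4 rose and 2 fell in HCC827 (median 0.09). The counts of falls depended on scaling, as THOC6 and ZNF200 also fell in PC9 with either other scaling. BICDL2 rose by 1.07 and 0.77 and MMP25-AS1 by 0.94 and 0.63, far less than IL32 between them and ZNF205, which had changes of 0.04 and 0.27 that did not pass.

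**Figure D3:**
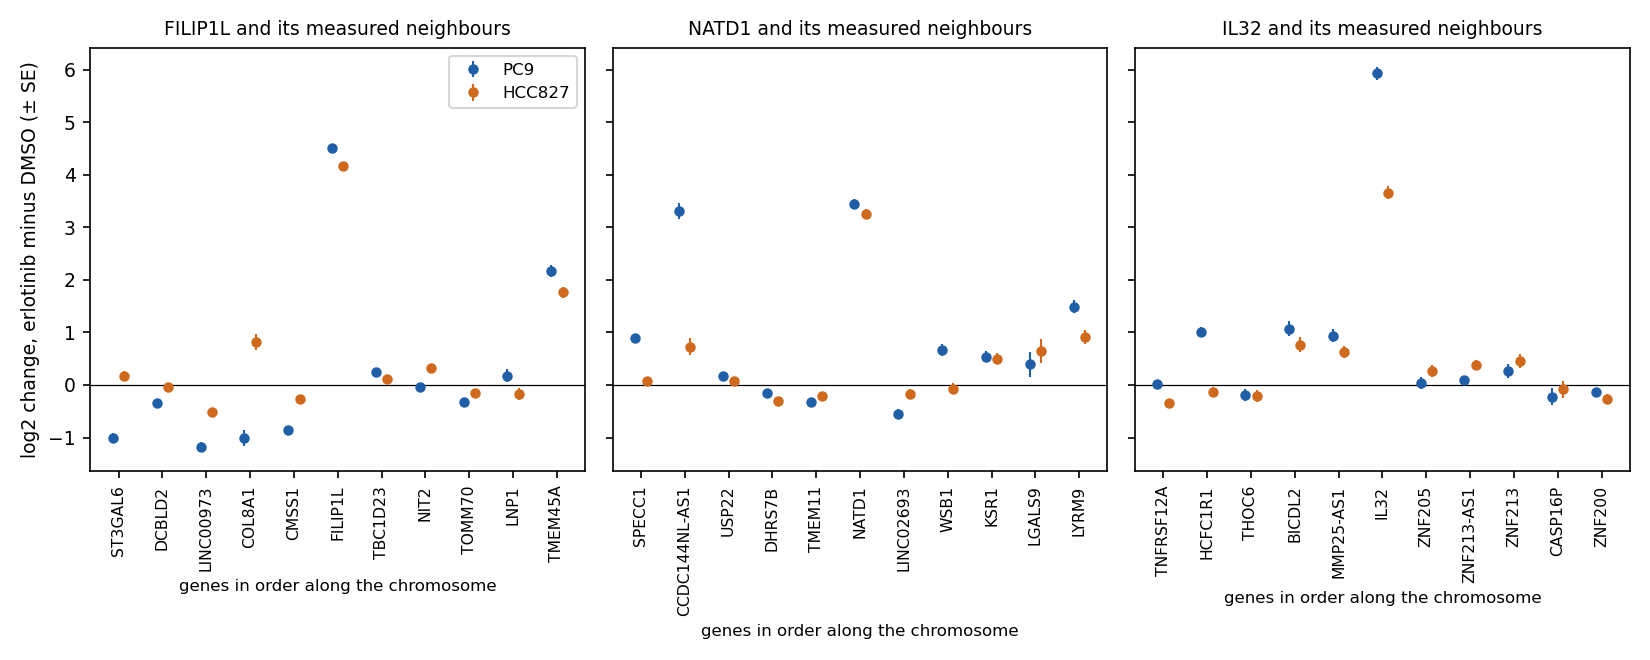
Log2 change with erlotinib (± SE) of FILIP1L, NATD1 and IL32 and of the 5 measured genes on either side of each, in chromosome order, in PC9 (blue) and HCC827 (orange). The 3 genes stand at 3.25 to 5.93, and of the 30 neighbours only CCDC144NL-AS1 in PC9 (3.31) comes near them.

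The proteins that bind filamins, the actin crosslinkers that give FILIP1L its name, had more rises than falls with erlotinib. Of 15 listed genes 8 were measured, 3 were under the filter, 1 was found only on a probe set of several symbols and 3 were not analysed here. In PC9 4 of 8 rose and none fell (median 0.63, against 0.05 for all genes, of which 36.4% rose and 28.3% fell). In HCC827 6 rose and none fell (median 0.56, against 0.07 for all genes, of which 32.3% rose and 19.5% fell). FBLIM1, which ties filamin to adhesion sites, rose by 1.35 ± 0.08 and 1.51 ± 0.08, and ARHGAP24, a filamin-binding regulator of Rac, by 1.13 ± 0.11 and 1.67 ± 0.11. The exchange factor TRIO rose by 0.98 in PC9 and 0.36 in HCC827 and supervillin SVIL by 0.96 and 0.38. The refilin RFLNB rose in HCC827 by 1.38 ± 0.35 and SYNPO2, an actin-binding protein, by 0.74 ± 0.21, while in PC9 RFLNB had a change of -0.50 (adjusted p = 0.229) and fell when DMSO replicate 3 was left out, which made the count of falls 1. FILIP1, the closest relative of FILIP1L, read at most 7.2 on its 4 probe sets and was not measurably expressed in any group.

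WNT target genes and matrix metalloproteinases, which FILIP1L is known to restrain, moved both ways. Of 15 listed genes 11 were measured, and in each line 3 rose and 3 fell (median -0.12 in PC9 and 0.14 in HCC827). Of all genes, 36.4% rose and 28.3% fell in PC9 and 32.3% and 19.5% in HCC827, with medians of 0.05 and 0.07. In PC9 the WNT feedback gene AXIN2 rose by 1.63 ± 0.14 and the protease MMP7 by 0.86 ± 0.20 from a signal of 1.90 to 10.5, whereas ZNRF3, which removes WNT receptors, fell by 0.73 and MYC fell by 0.66. In HCC827 MMP2 rose by 1.21 ± 0.20 and the WNT deacylase NOTUM by 0.93 ± 0.17, both from signals under 5 to under 20, and MMP7 fell by 1.08 and MMP9 fell by 0.98. With median centring 5 genes fell in PC9, LEF1 and NOTUM being added, and 2 rose.

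Other GNAT acetyltransferases moved both ways and by less than NATD1. Of 30 listed genes 19 were measured, 5 were under the filter, 1 was found only on a probe set of several symbols and 5 were not analysed here. In PC9 8 rose and 8 fell (median 0.13, against 0.05 for all genes, of which 36.4% rose and 28.3% fell). In HCC827 8 rose and 6 fell (median 0.09, against 0.07 for all genes, of which 32.3% rose and 19.5% fell). The largest change, in either direction, was 1.42 in PC9 and 1.15 in HCC827. With the actin ratio as a covariate, 5 rose in HCC827. SAT1, which acetylates spermidine, rose by 1.42 ± 0.08 in PC9 and 0.30 ± 0.08 in HCC827. The tubulin acetyltransferase ATAT1 rose by 0.87 and 1.15, and NAT14 rose by 0.56 in PC9 and 1.03 in HCC827. NAT8L, which makes N-acetylaspartate, fell by 1.01 in PC9 and rose by 0.80 in HCC827. NAT10, an RNA acetyltransferase, fell by 0.81 in PC9 and by 0.27 in HCC827. ESCO2, which acetylates cohesin, fell by 0.78 in PC9 and by 1.06 in HCC827.

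Of the genes known to lie upstream of IL32, 19 of 21 were measured, 10 rose and 4 fell in PC9 (median 0.24) and 11 rose and 4 fell in HCC827 (median 0.33). Of all genes, 36.4% rose and 28.3% fell in PC9 and 32.3% and 19.5% in HCC827, with medians of 0.05 and 0.07. TNF, a known inducer, was low in both lines and went from a signal of 1.00 to 21.1 in PC9 (log2 1.68 ± 0.16) and from 1.27 to 43.9 in HCC827 (2.50 ± 0.16). The NF-kB inhibitor and target NFKBIA rose by 1.82 ± 0.12 and 0.63 ± 0.12, and the interferon-induced factor IRF1 by 1.75 ± 0.09 in PC9 and 0.33 ± 0.09 in HCC827, where it did not pass with median centring (adjusted p = 0.0559). The interferon gamma receptor chain IFNGR1 rose by 1.34 in PC9 and by 0.74 in HCC827, and IFNG itself was under the filter. The kinase IKBKB rose by 0.66 in PC9 and by 0.54 in HCC827. IL18R1, a receptor chain for interleukin 18, fell by 2.96 ± 0.12 in PC9 from a signal of 235 to 23.3. In HCC827 the rises numbered 7 with median centring, 6 with the actin ratio as a covariate and 6 without erlotinib replicates 2 and 3. The falls there numbered 2 without any 1 of PC9 DMSO replicate 3, HCC827 DMSO replicates 1 and 2 and HCC827 erlotinib replicates 1 and 2, 1 with the actin ratio as a covariate, and 0 without HCC827 erlotinib replicates 2 and 3 together.

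Genes known as outputs or binding partners of IL32 had more rises than falls. Of 12 listed genes 10 were measured, of which 7 rose and none fell in PC9 (median 0.88) and 6 rose and 1 fell in HCC827 (median 0.59). All genes also had more rises than falls: 36.4% rose and 28.3% fell in PC9 (median 0.05). In HCC827 32.3% of all genes rose and 19.5% fell (median 0.07). The cytokine IL6 rose in both lines, by 3.98 ± 0.12 in PC9 and 2.32 ± 0.12 in HCC827. The neutrophil chemokine CXCL8 rose by 3.43 ± 0.18 and 0.93 ± 0.18 and CXCL2 by 1.63 ± 0.15 and 0.81 ± 0.15. The integrin chain ITGB3, part of a receptor that binds IL32, rose by 2.01 ± 0.15 and 0.96 ± 0.15. CCL2, a monocyte chemokine, rose by 4.67 ± 0.21 in HCC827 but had a change of -0.32 in PC9 (adjusted p = 0.198), where it lay at signals of 8.30 and 4.33. The count of falls was not stable. In PC9 it was 3 with median centring or without DMSO replicate 1, and 2 with the mean of all probe sets. It was 1 there with quantile normalization, a constant of 32, a filter at the 70th percentile or no intensity trend. Leaving out PC9 or HCC827 erlotinib replicate 1 also made the PC9 count 1. In HCC827 the count was 2 with median centring and 0 with the actin ratio as a covariate. It was also 0 there without DMSO replicate 1 or without erlotinib replicate 2 or 3. IL6, CXCL8, CXCL2 and ITGB3 rose in both lines, each with a larger change in PC9, whereas CCL2 rose only in HCC827. As deposited, ITGAV and STAT3 rose in PC9 only, PRKCD rose in both lines, PRKCE fell in HCC827 and PTK2 passed in neither. A link of these changes to IL32 was not tested.

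**Figure D4:**
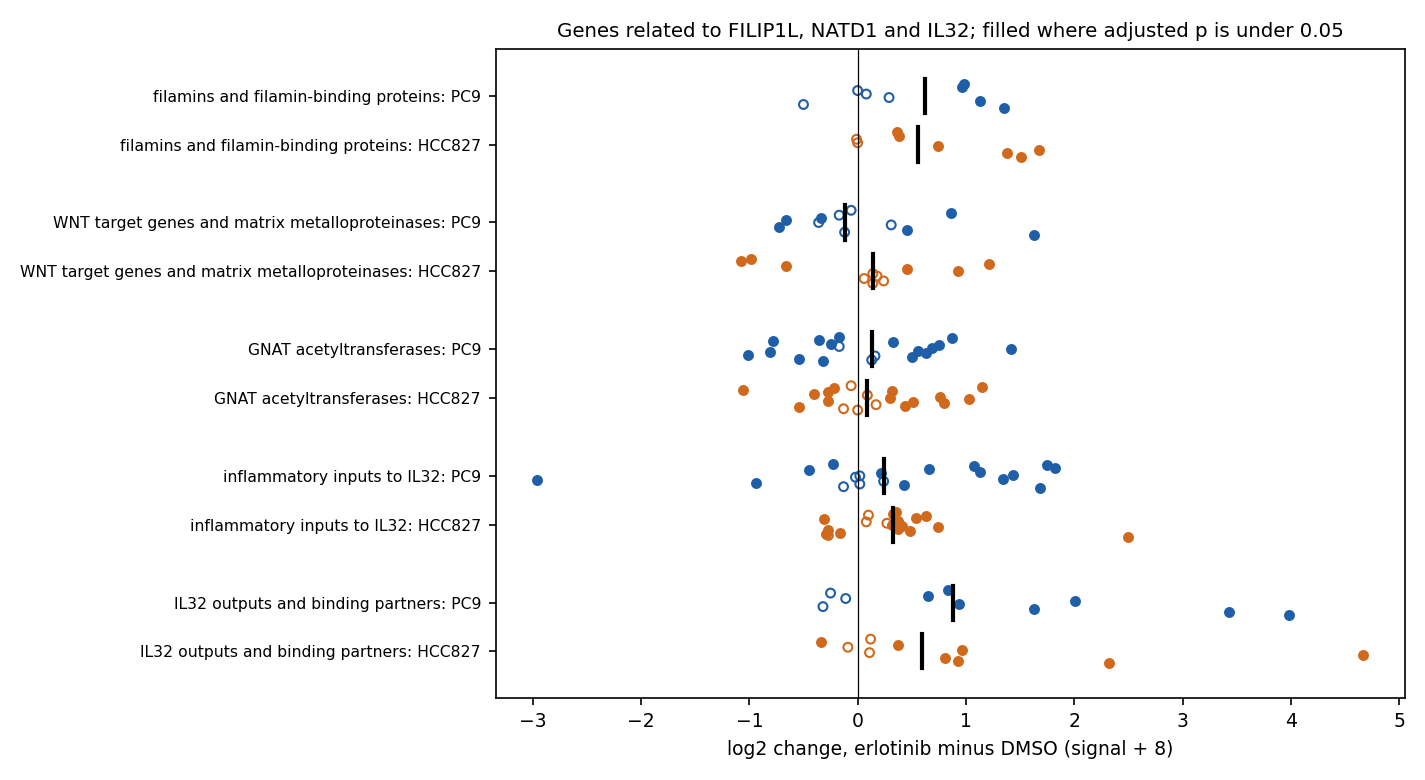
Log2 change with erlotinib of every measured gene of the 5 lists related to FILIP1L, NATD1 and IL32, in PC9 (blue) and HCC827 (orange), with 1 point per gene, filled where the adjusted p is under 0.05, and a black bar at the median. The filamin-binding genes and the IL32 outputs and partners have more points to the right of 0 than to the left, and the GNAT acetyltransferases and WNT target genes lie on both sides.

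Since IL32 is abundant in lymphocytes and FILIP1L in stromal cells, markers of other cell types were read on the same arrays. The 8 epithelial markers passed the filter, with EPCAM between 2204 and 2878. Of 12 T and natural killer cell markers, 10 lay under 13 on every array, including CD3D, CD3E, CD2, PTPRC, NKG7 and GNLY. The summed signal of the 12 was 88.4 to 100.3 in PC9 DMSO and 51.7 to 77.9 in PC9 erlotinib. In HCC827 it was 67.0 to 80.8 with DMSO and 59.0 to 80.5 with erlotinib. Much of it came from CD7 and CD247, the 2 past the filter. With erlotinib they went from 27.3 to 14.6 and from 42.0 to 31.0 in PC9. In HCC827 they went from 22.3 to 15.7 and from 28.9 to 24.6. As the other 10 lay under 13, the sum says little about lymphocytes, whose part in the IL32 change was not tested. Of 13 endothelial, fibroblast and smooth muscle markers, 7 lay under 13 on every array, namely VWF, KDR, TEK, COL1A2, COL3A1, DCN and PDGFRB. The summed signal of these 13 was 1043 to 1133 in PC9 DMSO and 1089 to 1216 in PC9 erlotinib, and 204 to 232 and 676 to 753 in HCC827, where COL1A1 went from 150 to 460 and LUM from 6.0 to 183. In PC9 the same fibroblast markers were also higher with erlotinib, COL1A1 going from 71.0 to 292 and LUM from 1.40 to 104, and the endothelial CDH5 went from 105 to 178 while PECAM1 went from 835 to 506, so the sum there moved little. Their part in the FILIP1L change was not tested. The ratio of 3′ to 5′ actin signal, a sign of RNA quality, was 2.45 to 3.64 on the HCC827 erlotinib arrays and 2.05 to 2.53 on all others. With that ratio as a covariate, the HCC827 changes were 4.15 for FILIP1L, 3.33 for NATD1 and 3.77 for IL32, against 4.16, 3.25 and 3.66 without it. Without erlotinib replicates 2 and 3, the arrays of highest ratio, they were 4.12, 3.29 and 3.68.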

How the data were processed

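Values in the deposited table are linear signal intensities, 1 for each array and probe set, from MAS5 as named by the authors, per the submitters' processing notes (version and filters not given in the sources used here). Each array has the same trimmed mean of 150, and median signals run from 11.1 to 14.5. No detection calls were used. Of 54675 probe sets, 41091 have 1 symbol in the platform annotation, 1801 have several, 11721 have none and 62 are controls; 41037 matched RefSeq by gene ID.

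The brightest probe set of each gene was analysed as log2 of the signal plus 8, and 13165 genes with at least 1 group mean at or above the median signal of 13 were tested. Limma 3.58.1 (R 4.3.3) was fitted with 1 mean per group, an intensity trend and Benjamini-Hochberg adjustment, and genes were called at an adjusted p under 0.05. The fit was tested on simulated data. The 3 genes and all lists were chosen with earlier results of these data known. Besides the 3 genes, the text names the 10 largest shared changes, the 4 most alike genes of each, 5 neighbours on either side, and up to 4 called genes with the largest changes of each list and line; single genes outside that rule that decide a count were named after their values were seen. Alternatives were another constant, scaling, filter, probe set choice or variance model, a replicate block, the actin ratio, and left-out arrays.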

Additional observations from a re-analysis of the deposited data

Results flagged for a closer look

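For the named genes of the related lists, the change in PC9 minus the change in HCC827 was tested in the limma fit over all genes, where 45.2% of genes passed an adjusted p under 0.05. These genes were named for large changes in either line, which favours changes that differ, so their share cannot be set against that of all genes. The difference passed for 25 of the 30, and the log2 differences follow each name. Among filamin-binding genes these were ARHGAP24 (-0.54), TRIO (0.62), SVIL (0.58) and RFLNB (-1.87). Among WNT targets and metalloproteinases they were AXIN2 (1.49), MMP7 (1.95), ZNRF3 (-0.91), MYC (-1.12), MMP2 (-1.38), MMP9 (0.93) and NOTUM (-1.29). The acetyltransferases were SAT1 (1.12), NAT8L (-1.81), NAT10 (-0.55) and NAT14 (-0.47). The genes upstream of IL32 were IL18R1 (-3.33), NFKBIA (1.19), IRF1 (1.42), TNF (-0.82) and IFNGR1 (0.59). Among its outputs and partners they were IL6 (1.66), CXCL8 (2.50), ITGB3 (1.05), CXCL2 (0.82) and CCL2 (-4.99). MMP7 and NAT8L were called in opposite directions in the lines, as were MYC and IL18R1, although the HCC827 rise of IL18R1 did not pass with median centring (adjusted p = 0.0713). The same difference is a description only for FILIP1L, NATD1 and IL32, whose changes chose them.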

How the results depend on the processing

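Signs of the 3 genes' changes and line differences were the same under every alternative. With 1 as the constant the PC9 and HCC827 changes were 4.69 and 4.52 for FILIP1L, 3.72 and 3.47 for NATD1 and 7.88 and 3.91 for IL32. With 32 they were 4.01 and 3.39, 2.80 and 2.71, and 4.16 and 3.07. With the mean of all probe sets, which takes in the dim ones, they were 3.00 and 2.82 for FILIP1L and 1.84 and 1.69 for NATD1. Probe set 1554965_at alone gave 0.084 and 0.29 and 1554966_a_at gave 4.00 in HCC827 for FILIP1L, and 1553872_at gave 0.25 and 0.12 for NATD1. In PC9 the change of FILIP1L was 4.38 after quantile normalization. Under median centring, which moved the median of all genes by -0.147, it was 4.36, with 3.29 for NATD1 and 5.78 for IL32. Higher genes made up 56.2% of the genes called in PC9 as deposited and 41.6% with median centring, and 62.3% and 50.4% in HCC827.

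The line difference of NATD1 missed the threshold with quantile normalization (-0.12), with the mean of its probe sets (-0.011) and without HCC827 erlotinib replicates 2 and 3 (-0.20, adjusted p = 0.0505), where the lone array was assumed to vary like the others. Leaving out each array in turn gave -0.22 to -0.15, with 6 of 12 still called. The same ranges were 0.98 to 1.04 for FILIP1L and -1.04 to -0.94 for IL32, whose line difference was -1.85 with 1 as the constant and -0.42 with 32, and the changes stayed within 4.45 to 4.54 and 4.11 to 4.22 (FILIP1L), 3.39 to 3.52 and 3.21 to 3.31 (NATD1), and 5.83 to 6.0 and 3.60 to 3.78 (IL32). Genes called in HCC827 numbered 4152 with the actin ratio as a covariate and 4402 without erlotinib replicates 2 and 3, against 6818. Fewer samples or 1 more term entered those fits, and the cause was not tested. Over all alternatives, 446 recomputed list counts stayed within 1.5 times and 34 did not. Low signal in PC9 DMSO limited the precision of IL32.

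Replicate numbers did not pair the samples: deviations of same-numbered DMSO and erlotinib arrays correlated with r from -0.26 to 0.13. With the replicate block, 8438 genes were called in PC9 and 6661 in HCC827, and the line differences were 1.01 (adjusted p = 1.15e-09), -0.18 (adjusted p = 0.0332) and -1.0 (adjusted p = 5.40e-08) for FILIP1L, NATD1 and IL32.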
